A study of Mus musculus with 15 samples.

Results

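The 6 genes described here are the membrane mucins Muc1, Muc4 and Muc16 and the goblet cell genes Muc5ac, Agr2 and Spdef. They were taken as a named list from the 55357 gene rows counted in each of 15 mouse cornea libraries. The libraries came from corneas of OPA1+/+ mice at 3 months (4 libraries) and 6 months (3 libraries) and of OPA1+/- mice at 3 months (4 libraries) and 6 months (4 libraries). OPA1+/- animals carry 1 altered allele of Opa1, the gene of a fusion protein of the inner mitochondrial membrane, and the OPA1+/+ animals are the controls of each age. The kind of allele, the strain, the sex and the number of animals behind each library are not given in the sources used here. The p-values below therefore measure the spread between libraries, which may be in part technical.

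Mucins are large glycoproteins whose serine- and threonine-rich repeats carry dense O-linked sugar chains. Membrane mucins are anchored in the apical cells of the stratified epithelium of the ocular surface, where they form a glycocalyx that holds water and keeps pathogens off, and part of the molecule can be shed into the tears. Gel-forming mucins are secreted. On the eye they come from goblet cells, which sit in the conjunctival epithelium and are not a normal constituent of the central cornea. MUC5AC is the main secreted mucin of those cells, AGR2 is a disulfide isomerase of the endoplasmic reticulum that helps to fold mucins, and SPDEF is an ETS-family transcription factor required for goblet cell differentiation.

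The repeats matter for what short reads can count, so the commonest stretch of 60 bases is printed for the mucin transcripts in which one recurs. Each was read 5′ to 3′ from the longest coding transcript of the gene in GENCODE mouse release 21, in the sense of the mRNA with T for U and with no base in capitals, and every copy lies in the coding part.
Muc1: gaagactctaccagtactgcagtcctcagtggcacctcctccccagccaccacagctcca
Muc4: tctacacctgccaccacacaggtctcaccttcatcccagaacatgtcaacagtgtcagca
Muc16: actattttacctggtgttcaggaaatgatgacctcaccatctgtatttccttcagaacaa
Muc5ac: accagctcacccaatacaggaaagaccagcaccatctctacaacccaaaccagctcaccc
The Muc5ac stretch occurred 11 times in exon 31 of 49, most often at a spacing of 96 bases. The Muc4 stretch occurred 5 times over 3 exons, most often 744 bases apart, and the Muc1 and Muc16 stretches occurred 2 times each, 312 and 3177 bases apart. Of all windows of 75 bases, the length of the reads, 21.64% in the Muc5ac transcript (2311 of 10678) were found more than once within that transcript. The share was 4.08% in Muc4, 0.88% in Muc16 and 0 in Muc1, Agr2 and Spdef. The authors' counting command has no option for reads that map to several places, so a read lying wholly in such a window has no unique place to be counted at, and this bears on Muc5ac more than on the other members.

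The positions of the members are those of the files, on GENCODE release 28, and values are counts over the annotated exons of each gene. Muc1 (ENSMUSG00000042784.10) is at chr3:89136364-89140688 on the plus strand, with 2346 exonic bases. Muc16 (ENSMUSG00000109564.2) is at chr9:18406751-18585826 on the minus strand, with 26350 exonic bases. Muc5ac (ENSMUSG00000037974.17) is at chr7:141342709-141372968 on the plus strand, with 10752 exonic bases. Agr2 (ENSMUSG00000020581.12) is at chr12:36042906-36054086 on the plus strand, with 1291 exonic bases, and Spdef (ENSMUSG00000024215.15) is at chr17:27933326-27947929 on the minus strand, with 2305 exonic bases. The identifier that Muc4 has in release 21 is not among the rows of the files, and the symbol tables used here name no row Muc4. Row ENSMUSG00000118672.1, at chr16:32555015-32602754 on the plus strand with 12754 exonic bases, was read as Muc4 because 22 of its 29 exon intervals have the lengths of exons of release 21 Muc4 at 1 constant shift. The next best of the 63 unnamed rows on that chromosome and strand shared 1 exon. Muc4 overlaps Muc20, which lies on the opposite strand, over 4962 bases of the gene spans, and the counting used strand.

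Total counts per library ran from 11673240 to 18194946, and a library with 0 reads of a gene could still hold up to 3, which is 0.165 to 0.257 CPM (counts per 1e6 library counts). Opa1 itself ranged from 65.2 to 73.4 CPM over the 7 control libraries and from 45.5 to 57.8 CPM over the 8 heterozygous ones, in the direction of the labels. The 7 corneal epithelial markers summed to 60880 to 72979 CPM in every library and the 6 markers of conjunctival epithelium (Krt4, Krt7, Krt8, Krt13, Krt18, Krt19) to 386 to 796 CPM. Most of the second sum was Krt13, at 444 CPM on average, while Krt8 and Krt18 averaged 2.02 and 2.33 CPM. Retinal markers summed to 152 CPM in OPA1+/- replicate 4 at 3 months and to 148 CPM in OPA1+/+ replicate 1 at 6 months, against 10.6 to 23.1 CPM in the other 13 libraries. Estimates for Muc1, Agr2 and Adam17 that move without those 2 libraries are given both ways, and Spdef had too few counts to be tested without them.

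Among the listed mucins that could be given a row, Muc4 was the most abundant message by a wide margin, and the goblet cell genes among the members were scarce. Muc4 was higher per kilobase of exon than Muc1, Muc1 higher than Agr2, Agr2 higher than Spdef, and Spdef higher than both Muc16 and Muc5ac, in 15 of 15 libraries. Averaged over the 15 libraries the levels were 500.4 CPM per kilobase for Muc4, 8.09 for Muc1, 1.28 for Agr2, 0.199 for Spdef, 0.00858 for Muc16 and 0.00815 for Muc5ac. The last pair could not be ordered, since Muc16 was above Muc5ac in 8 libraries, below it in 6 and equal in 1. None was called different between genotypes or ages at the threshold used, an adjusted p under 0.05 in edgeR's quasi-likelihood test with Benjamini-Hochberg adjustment over 15770 genes. In the wording used below, a genotype difference is OPA1+/- relative to OPA1+/+ and an age difference is 6 months relative to 3 months.

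**Figure D1:**
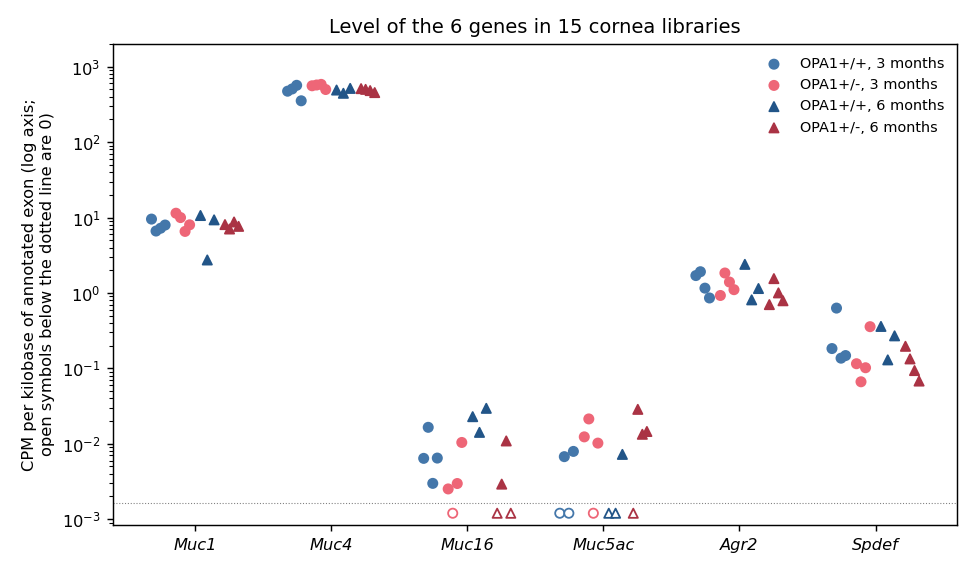
CPM per kilobase of annotated exon (log axis) for the 6 genes, 1 symbol per library, with circles for 3 months and triangles for 6 months, blue for OPA1+/+ and red for OPA1+/-. Open symbols below the dotted line are libraries with 0 counts (3 for Muc16 and 6 for Muc5ac), and the order from Muc4 to Spdef is the same in all 15 libraries.

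Of the 6 genes, 4 were abundant enough to be tested (Muc4, Muc1, Agr2 and Spdef), while Muc16 and Muc5ac fell below the filter on low counts. The number called was 0 of 4 for genotype at 3 months, where 0.00634% of all tested genes were called, and 0 of 4 for genotype at 6 months, where 0.323% were called. It was 0 of 4 for genotype averaged over ages (0.793% of all tested genes), for age in OPA1+/+ (0.0507%), for age in OPA1+/- (0.0824%) and for age averaged over genotypes (0.412%). For the interaction of genotype and age it was 0 of 4 as well, with 0% of all tested genes called. At an unadjusted p under 0.05 the count was 0 of 4 in each of the 7 comparisons. Of all 15770 tested genes, 1090 (interaction) to 1958 (genotype averaged over ages) were under that value in edgeR. DESeq2 called 0 members in each comparison, with between 0 and 3 members given no adjusted p. With so few genes called at the adjusted threshold and only 4 members tested, these counts are close to the background and do not set the members apart from other genes.

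Muc4, a membrane mucin whose transmembrane subunit can bind the receptor ERBB2, was the 10th most abundant of all genes by mean CPM and the 39th per kilobase. At 3 months its level was 6035, 6464, 7223 and 4502 CPM in OPA1+/+ replicates 1 to 4 and 7122, 7292, 7430 and 6353 CPM in OPA1+/- replicates 1 to 4. At 6 months it was 6250, 5661 and 6570 CPM in OPA1+/+ and 6523, 6382, 6144 and 5782 CPM in OPA1+/-. All 4 groups overlapped, and the lowest library was OPA1+/+ replicate 4 at 3 months. The group means were 6056 ± 1147 (SD, n = 4), 7049 ± 481 (n = 4), 6160 ± 461 (n = 3) and 6208 ± 324 CPM (n = 4), in the same order. The genotype difference at 3 months was 0.22 ± 0.11 (log2 ± SE, 95% interval -0.02 to 0.46, adjusted p = 0.601 in edgeR's quasi-likelihood test), or 16.4% with an interval from -1.69% to 37.8%. It was 0.091 without the low OPA1+/+ replicate 4 and 0.31 without OPA1+/+ replicate 3. At 6 months it was 0.01 ± 0.12 (interval -0.25 to 0.27, adjusted p = 0.988). The age difference was 0.02 ± 0.12 in OPA1+/+ (adjusted p = 0.973) and -0.18 ± 0.11 in OPA1+/- (adjusted p = 0.669), and the interaction was -0.21 ± 0.17 (adjusted p = 0.859). Muc4 was thus the member measured most tightly, and its intervals exclude a doubling or a halving in each of these comparisons.

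A single mucin gene took a measurable share of each library. Muc4 reads made up 0.450% to 0.739% of all counts and 99.6% to 99.9% of the counts of the 4 mucins among the members. Against the wider family of 11 mucin genes (Muc1, Muc2, Muc3, Muc3a, Muc4, Muc5ac, Muc5b, Muc13, Muc15, Muc16 and Muc20) its share of counts was 93.4% to 95.4%. Counts scale with transcript length, and of the summed CPM per kilobase of the 11 genes Muc4 held 80.3% to 85.8%. With the sialomucin Cd164 counted as well, the shares were 84.0% to 89.6% of counts and 62.9% to 73.4% of CPM per kilobase. Per kilobase Muc4 was 44.4 to 162 times as high as Muc1 (median 59.4) and 7.72 to 14.8 times as high as Muc15, and it reached 1.99% to 3.78% of the level of Krt12, the keratin that marks corneal epithelium. Reads of the overlapping Muc20, counted on the other strand, numbered 2.47 to 3.84 per 100 Muc4 reads.

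Muc1, a membrane mucin with a cytoplasmic tail that takes part in signalling, was at a moderate level in every library. At 3 months it stood at 22.4, 15.5, 16.9 and 18.7 CPM in OPA1+/+ and at 26.8, 23.4, 15.4 and 18.8 CPM in OPA1+/-. At 6 months it stood at 24.9, 6.42 and 21.8 CPM in OPA1+/+ and at 18.9, 16.5, 20.5 and 17.9 CPM in OPA1+/-. The groups overlapped, and 1 library, OPA1+/+ replicate 2 at 6 months, was far below the other 14. The means were 18.4 ± 2.96 (SD, n = 4), 21.1 ± 5.03 (n = 4), 17.7 ± 9.92 (n = 3) and 18.5 ± 1.66 CPM (n = 4). The genotype difference was 0.20 ± 0.32 at 3 months (log2 ± SE, adjusted p = 0.897 in edgeR's quasi-likelihood test) and 0.06 ± 0.35 at 6 months (interval -0.70 to 0.82, adjusted p = 0.977). The low library set the sign of the second value: without it the difference at 6 months was -0.34, the age difference in OPA1+/+ moved from -0.05 to 0.35, and neither was called. Without the 2 libraries with retinal transcripts these values were 0.39 and -0.38, and the genotype difference averaged over ages was 0.32 in place of 0.13, again not called. The estimate at 3 months ran from 0.061 (without OPA1+/- replicate 1) to 0.32 (without OPA1+/- replicate 3) when 1 library at a time was left out.

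Muc16, the largest membrane mucin and the source of the CA125 antigen, was barely detected. In OPA1+/+ it had 2, 6, 1 and 2 counts at 3 months and 8, 5 and 10 counts at 6 months, and in OPA1+/- it had 1, 0, 1 and 5 counts at 3 months and 0, 1, 4 and 0 counts at 6 months. It was at 3 counts or fewer in 9 of 15 libraries and had 46 counts in all. The 3 OPA1+/+ libraries at 6 months, with 23 counts together, were all above the 4 OPA1+/- libraries of that age, with 5 counts together, and the nearest libraries of the groups had 5 and 4 counts. As CPM these groups were 0.584 ± 0.203 (SD, n = 3) and 0.0910 ± 0.136 (n = 4). The exact two-sided permutation test over these 7 libraries gave p = 0.05714, where the smallest value the design allows is 0.02857, and adjustment over the 24 such tests run on the members gave 0.6857, a value that a single test at the smallest possible p would get too, so this adjusted value could not have passed. Groups that do not overlap at 6 months were also found for 11.3% of the tested genes. In an edgeR fit with no filter on low counts the difference was -2.52 on the log2 scale with an adjusted p of 0.1006, so the separation was not called, and at 3 months the OPA1+/+ and OPA1+/- libraries overlapped.

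**Figure D2:**
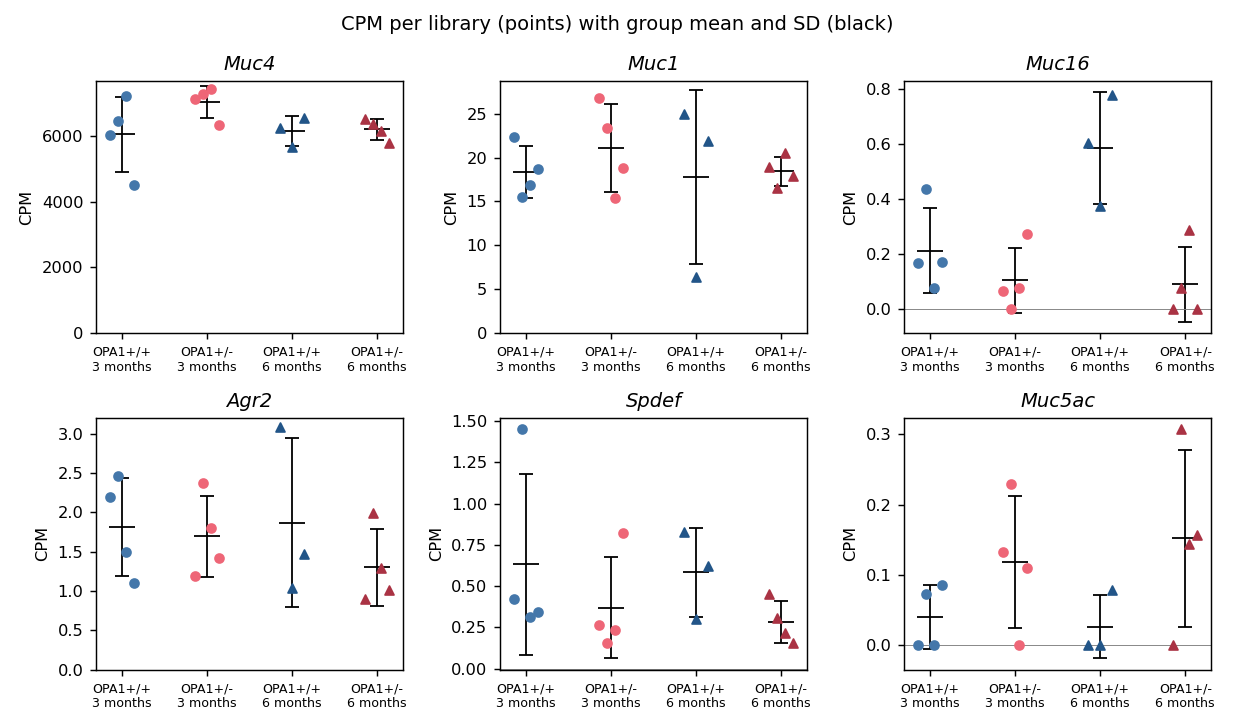
CPM in each library (points) with the group mean and SD (black) for the 6 genes, each panel on its own linear axis, and the 4 groups from left to right. The panels show the low Muc1 library of OPA1+/+ at 6 months, the separation of the Muc16 groups at 6 months, and the 2 high Spdef libraries at 3 months.

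Among the goblet cell genes, the secreted mucin Muc5ac was at or under the detection limit. It had 0, 1, 0 and 1 counts in OPA1+/+ and 2, 3, 0 and 2 counts in OPA1+/- at 3 months, and 0, 0 and 1 counts in OPA1+/+ and 0, 4, 2 and 2 counts in OPA1+/- at 6 months. At least 1 count was found in 9 of 15 libraries and more than 3 counts in 1. The OPA1+/- libraries, 8 of the 15, held 15 of the 18 counts, with overlap between genotypes at both ages. The exact two-sided permutation p was 0.2 at either age. In the edgeR fit with no filter the adjusted p was 0.776 at 3 months, 0.8068 at 6 months and 0.5589 for genotype averaged over ages. In whole-cornea RNA fewer cells of a type and less RNA per cell cannot be told apart, here and for every gene below.

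Agr2, the mucin-folding isomerase, had 12 to 41 counts per library. Its level at 3 months was 2.19, 2.47, 1.49 and 1.11 CPM in OPA1+/+ and 1.20, 2.37, 1.80 and 1.43 CPM in OPA1+/-. At 6 months it was 3.09, 1.05 and 1.48 CPM in OPA1+/+ and 0.904, 2.00, 1.29 and 1.02 CPM in OPA1+/-. The libraries of all 4 groups overlapped, with means of 1.82 ± 0.63 (SD, n = 4), 1.70 ± 0.51 (n = 4), 1.87 ± 1.08 (n = 3) and 1.30 ± 0.49 CPM (n = 4). The genotype difference was -0.12 ± 0.34 at 3 months (log2 ± SE, adjusted p = 0.949 in edgeR's quasi-likelihood test) and -0.52 ± 0.38 at 6 months (interval -1.31 to 0.27, adjusted p = 0.687). The second value rested on OPA1+/+ replicate 1, the highest of all libraries and 1 of the 2 with retinal transcripts: without that library it was 0.05. Without both retinal libraries it was 0.049, the age difference in OPA1+/+ moved from 0.03 to -0.54 and that averaged over genotypes from -0.16 to -0.49, none of them called. Agr2 per kilobase was 3.38 to 12.3 times lower than Muc1.

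Spdef, the goblet cell transcription factor, had 2 to 20 counts per library and was at 3 counts or fewer in 4 of them. At 3 months it stood at 0.422, 1.45, 0.315 and 0.341 CPM in OPA1+/+ and at 0.266, 0.153, 0.235 and 0.823 CPM in OPA1+/-. At 6 months it stood at 0.829, 0.299 and 0.622 CPM in OPA1+/+ and at 0.452, 0.307, 0.215 and 0.156 CPM in OPA1+/-. The groups overlapped at both ages, and at 3 months 1 library of each genotype was well above its group. The 3 highest libraries were OPA1+/+ replicate 2 at 3 months, OPA1+/+ replicate 1 at 6 months and OPA1+/- replicate 4 at 3 months. The last 2 are the libraries with retinal transcripts. Without both of them Spdef fell below the filter on low counts and had no estimate. In the 15 fits that each left out 1 library it had an estimate in 13, so passing the filter rested on few libraries. The means were 0.632 ± 0.548 (SD, n = 4), 0.369 ± 0.306 (n = 4), 0.583 ± 0.267 (n = 3) and 0.283 ± 0.129 CPM (n = 4). The genotype difference was -0.70 ± 0.56 at 3 months (log2 ± SE, adjusted p = 0.747 in edgeR's quasi-likelihood test) and -1.02 ± 0.66 at 6 months (adjusted p = 0.640). Averaged over ages it was -0.86 ± 0.43 (interval -1.77 to 0.05, unadjusted p = 0.0626, adjusted p = 0.435). Among the 4 tested members Spdef had the largest estimated genotype difference and the widest interval, and the counts behind it do not allow a sign to be called.

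Side by side, the tested membrane mucins had differences near 0 or above it in OPA1+/- and the tested goblet cell genes had differences below 0, none of them called. The median log2 genotype difference of Muc4 and Muc1 was 0.21 at 3 months and 0.04 at 6 months, and that of Agr2 and Spdef was -0.41 and -0.77, against a median of 0.00 over all tested genes at either age. The members below the filter had the opposite signs in the edgeR fit with no filter, none of them called. Muc16 was at -0.86 and Muc5ac at 1.38 at 3 months, and they were at -2.52 and 2.21 at 6 months. Leaving out 1 library also turned the sign at 6 months for Muc1 (to -0.34) and Agr2 (to 0.05). With 2 genes in each median and intervals that include 0, the medians are a description of estimates and not a difference between the kinds of gene. The interaction of genotype and age was -0.14 ± 0.47 for Muc1, -0.40 ± 0.51 for Agr2 and -0.32 ± 0.86 for Spdef, with adjusted p of 0.974, 0.912 and 0.966 in edgeR's quasi-likelihood test. Age differences averaged over genotypes lay between -0.32 (Spdef) and -0.08 (Muc4).

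**Figure D3:**
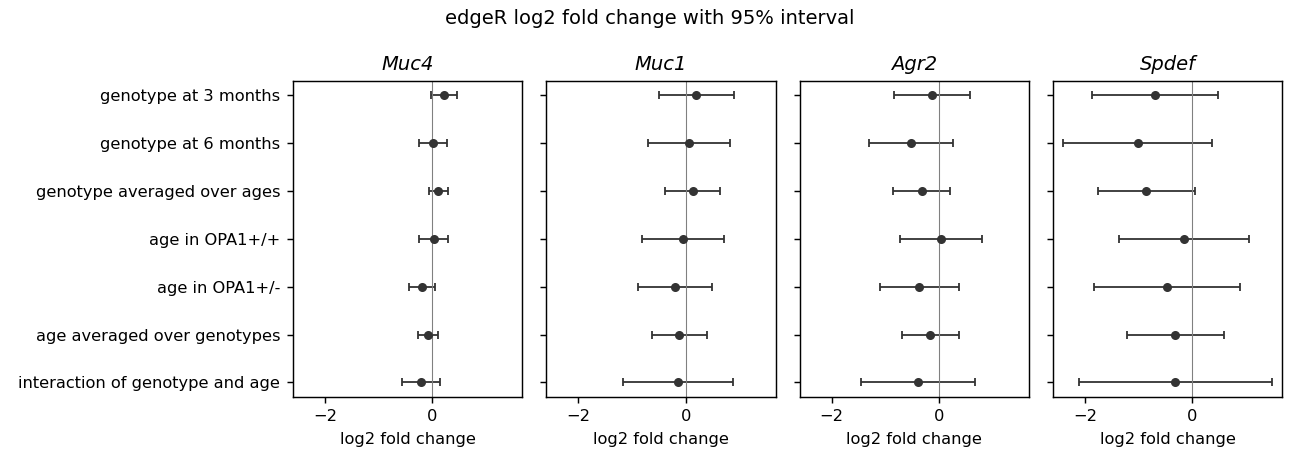
The edgeR log2 fold change (point) with its 95% interval (bar) for the 4 tested genes in the 7 comparisons. All 28 intervals cross 0, and they widen from Muc4 to Spdef, with those of Muc1 and Agr2 close in width.

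Genes with the most similar profile over the 15 libraries were named by Pearson's r of log2 CPM among 12205 genes of at least 1 CPM, as a description: these values share depth and library, and the highest of so many coefficients is high by selection. Muc4 was most like Ncoa1 (r = 0.90), a nuclear receptor coactivator, Eif4g3 (0.89), a translation initiation factor, and Scel (0.87), a protein of the cornified envelope. Muc1 was most like Itpr2 (0.83), a calcium channel of the endoplasmic reticulum, Ank3 (0.83), an ankyrin, and Rps3a1 (0.81), a ribosomal protein. Agr2 was most like Psenen (0.88), a subunit of gamma-secretase, Kcnj15 (0.86), a potassium channel, and Il1r2 (0.85), a decoy receptor for interleukin 1. Spdef was most like Birc3 (0.87), Mon1b (0.79) and Ube2b (0.78). The members were less alike among themselves: r was 0.24 for Muc1 with Muc4 and 0.39 for Agr2 with Spdef.

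Over the libraries the level of Agr2 went with that of 2 of the 6 conjunctival markers, Krt13 and Krt19. With Krt4 the rank correlation passed the threshold after adjustment and Pearson's r did not. The relation was looked for after the values had been seen, so its p-values describe a pattern already noticed. Over 15 libraries Pearson's r of Agr2 on log2 CPM was 0.74 with Krt13 (permutation p = 0.00269), 0.76 with Krt19 (p = 0.00112) and 0.66 with Krt4 (p = 0.00859). Adjusted over the 24 relations of the 4 tested members with the 6 markers, the permutation p of r was 0.03228, 0.02688 and 0.06872. Spearman's rho was 0.70, 0.76 and 0.70, with adjusted permutation p of 0.03936, 0.036 and 0.03936. With the other 3 markers r of Agr2 was 0.34 (Krt7), 0.08 (Krt8) and 0.09 (Krt18), with adjusted permutation p of 0.8598, 0.9117 and 0.9117. The adjusted permutation p of r for Muc4, Muc1 and Spdef lay between 0.4918 and 0.972 over their 18 relations. Without the 2 libraries farthest from the keratin's median, r of Agr2 was 0.86 with Krt13, 0.74 with Krt19 and 0.63 with Krt4, and with the 4 group means removed it was 0.74, 0.82 and 0.61. Those 3 keratins were themselves alike (r between 0.83 and 0.91), so these are not 3 separate relations. Whether the coefficient of Agr2 differs from those of the other members was not tested.

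**Figure D4:**
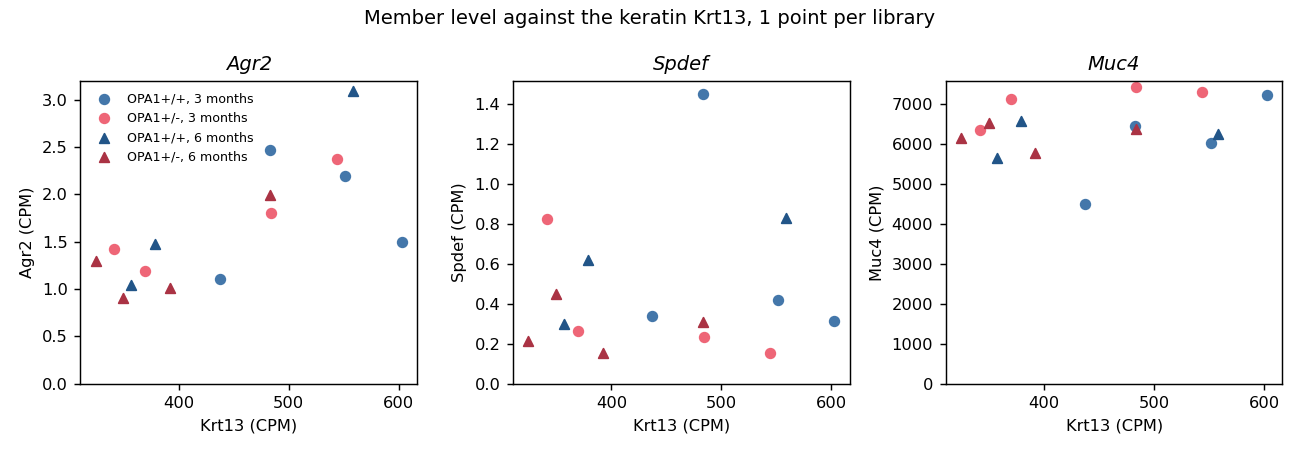
Level of Agr2, Spdef and Muc4 (CPM, vertical axes from 0) against the keratin Krt13 (CPM), 1 point per library. Agr2 tends to be high where Krt13 is high (r = 0.74 on log2 CPM), while Spdef (0.06) and Muc4 (0.24) show little relation to it.

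The conjunctival markers overlapped between all groups. They summed to 584 to 796 CPM in OPA1+/+ and 399 to 743 CPM in OPA1+/- at 3 months, and to 422 to 745 CPM in OPA1+/+ and 386 to 585 CPM in OPA1+/- at 6 months. These sums were mostly Krt13. All 6 markers were tested and 0 were called in any comparison, and their median log2 difference was -0.27 at 3 months and -0.26 at 6 months in OPA1+/-, beside 0.00 for all tested genes. Krt4 ranged from 11.8 to 124.6 CPM. The part of these markers in the estimates for Agr2 and Spdef was not tested.

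The other listed mucins that had a row held a few abundant genes, and the rest were scarce. Of 16 other mucin genes listed, 12 had a row and 5 were tested, and 0 were called in the 7 comparisons. Muc6, Muc17, Muc19 and Muc21 had no row with their symbol, so their levels are not known. Cd164, a sialomucin found on many cell types, had the highest level of these at 126 CPM per kilobase, followed by Muc15, a membrane mucin, at 49.2 and Muc20 at 45.3. Both Muc15 and Muc20 were thus above Muc1 (8.09). Muc15 had 162 ± 24.3 CPM in OPA1+/+ and 157 ± 18.6 CPM in OPA1+/- at 3 months (SD, n = 4 each) and 202 ± 4.02 (n = 3) and 188 ± 9.27 CPM (n = 4) at 6 months. Its age difference averaged over genotypes was 0.29 ± 0.07 (log2 ± SE, unadjusted p = 0.00142), which missed the threshold in edgeR's quasi-likelihood test (adjusted p = 0.104). The secreted mucins Muc2 and Muc5b had at most 17 counts and 1 count in any library. Scarcity was not confined to secreted mucins: Muc13, Emcn and Muc3 had at most 39, 4 and 2 counts.

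Most of the other goblet cell genes were not detected above the limit of 3 counts. Of 19 listed, 7 were tested and 0 were called, and the other 12 had at most 3 counts in every library. Of those 12, 6 had 0 counts in all 15 libraries: the trefoil factor Tff3, the transcription factor Foxa2, the stress sensor Ern2, Retnlb, Pla2g10 and Agr3. The genes that were well measured are in general not restricted to goblet cells, and which cells held them here was not tested. Xbp1, a transcription factor of the unfolded protein response, had 79.5 CPM on average, and Fcgbp, which encodes a mucus-associated protein, had 112 CPM, or 4.08 to 15.1 times the level of Agr2 per kilobase. Fcgbp varied little, from 97.7 to 127.7 CPM over the 15 libraries, with a genotype difference of 0.04 ± 0.09 at 3 months and 0.01 ± 0.10 at 6 months (adjusted p = 0.923 and 0.989, edgeR's quasi-likelihood test).

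**Figure D5:**
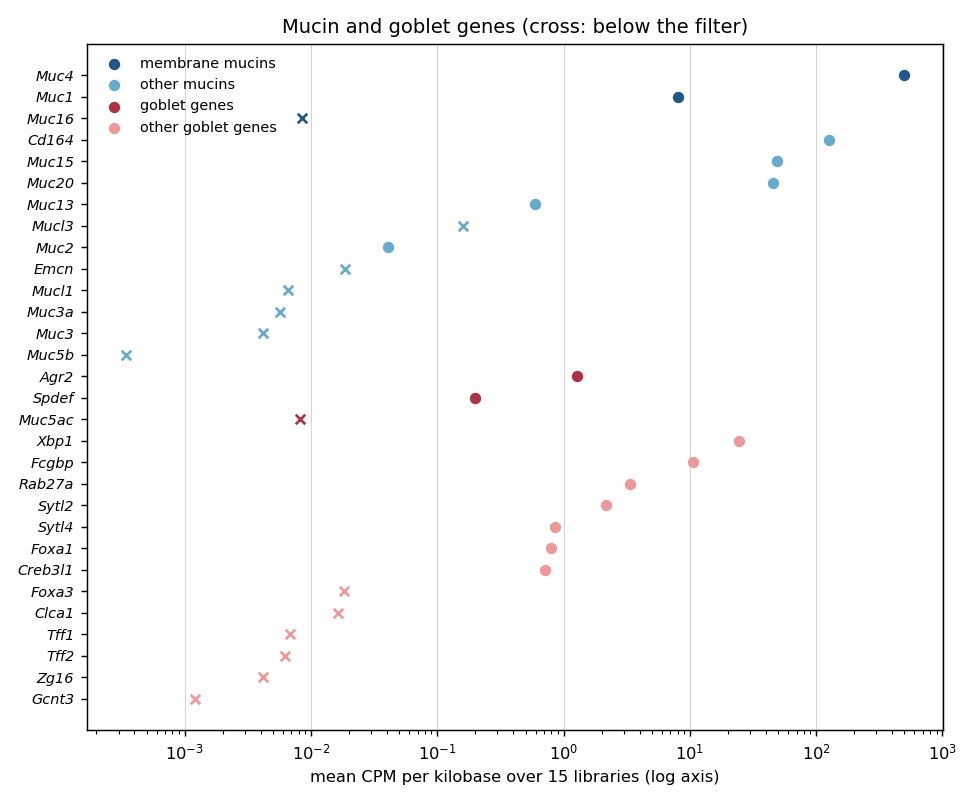
Mean CPM per kilobase over the 15 libraries (log axis) for the 6 genes and the other mucin and goblet cell genes with at least 1 count, with crosses for genes below the filter on low counts. Muc4 is the highest at 500.4, and Muc16 and Muc5ac lie among genes that were not tested.

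Of the enzymes that build O-linked chains on mucins, 20 of 24 were tested and 0 were called in any of the 7 comparisons. The highest per kilobase were St6galnac1, which adds sialic acid to the first sugar of a chain (119 CPM per kilobase), and Galnt18, of the family that starts chains (118). Their genotype differences at 6 months were 0.04 ± 0.12 and -0.15 ± 0.07 (log2 ± SE, adjusted p = 0.951 and 0.426 in edgeR's quasi-likelihood test). The smallest p of the list belonged to Fut2, a fucosyltransferase, which is named after its values were seen. Fut2 had 12, 12 and 11 counts in OPA1+/+ and 4, 4, 4 and 2 counts in OPA1+/- at 6 months. Those groups did not overlap, as for 11.3% of all tested genes at 6 months, and the difference of -1.71 ± 0.39 missed the threshold (adjusted p = 0.0682). At 3 months Fut2 had 7, 7, 4 and 4 counts in OPA1+/+ and 7, 6, 3 and 4 counts in OPA1+/-, with overlap. Only the OPA1+/+ libraries at 6 months had more than 7 counts, so Fut2 passed the filter on low counts through the group where it was high. Its p for genotype at 6 months is therefore not independent of that filter.

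Partners of membrane mucins and enzymes that shed them were the 1 list with called genes in the fit of all 15 libraries. Of 16 names listed, 13 were tested. Adam17, the metalloprotease that can release the outer part of membrane mucins, was lower in OPA1+/- at 6 months, with 119, 118 and 114 CPM in OPA1+/+ and 96.9, 92.9, 87.8 and 102 CPM in OPA1+/-. Every OPA1+/+ library of that age was above every OPA1+/- library. Groups that do not overlap at 6 months were found for 11.3% of all tested genes, and 0.323% were called for genotype at that age. The difference was -0.31 ± 0.06 at 6 months (log2 ± SE, adjusted p = 0.02613 in edgeR's quasi-likelihood test) and -0.20 ± 0.04 averaged over ages (adjusted p = 0.02615), and the estimate at 3 months was -0.10 ± 0.05 (adjusted p = 0.632). The difference between ages, -0.21 ± 0.08, was not called (adjusted p = 0.634). From 3 to 6 months the mean of OPA1+/- was 94.1 and 94.8 CPM (n = 4 each). That of OPA1+/+ was 101 (n = 4) and 117 CPM (n = 3), an age difference that was not called (adjusted p = 0.1611). Mmp14, a membrane-anchored metalloprotease, fell with age in OPA1+/- from 160 ± 3.84 to 131 ± 2.57 CPM (SD, n = 4 each), a log2 difference of -0.29 ± 0.05 (adjusted p = 0.04275). For age in OPA1+/-, 0.0824% of all tested genes were called. In OPA1+/+ the mean was 143 CPM at both ages, and its libraries at 6 months ran from 129 to 151 CPM. For Mmp14 neither the interaction of genotype and age (adjusted p = 0.3343, edgeR's quasi-likelihood test) nor the genotype difference at 3 months (0.295) was called.

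Both calls were fragile. The call of Adam17 at 6 months was lost when any of OPA1+/+ replicates 1 and 2 or OPA1+/- replicates 1, 2 and 3 of that age was left out (adjusted p up to 0.1714, edgeR's quasi-likelihood test) and without the 2 libraries with retinal transcripts (0.1063), while the estimate stayed between -0.34 and -0.27. Averaged over ages it was lost in 4 of 15 such fits (up to 0.0774) and without the retinal libraries (0.0961). The call of Mmp14 was lost in 9 of the 15 (adjusted p up to 0.1636), namely without OPA1+/+ replicate 1 at 3 months or any of the 8 OPA1+/- libraries. It was also lost with the replicate number as a block (adjusted p = 0.0769). Its estimate stayed between -0.30 and -0.27.

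Of the transcription factors and receptors listed as regulators of mucin or goblet cell genes, 18 of 18 were tested and 0 were called in the 7 comparisons. Klf4, a factor needed for the corneal epithelial surface and for conjunctival goblet cells, had the highest level of these at 349 CPM per kilobase. It had 976 ± 103 and 1097 ± 46.5 CPM at 3 months (SD, n = 4 each) and 1051 ± 79.2 (n = 3) and 1126 ± 31.1 CPM (n = 4) at 6 months, in OPA1+/+ and OPA1+/- respectively. Its genotype difference averaged over ages was 0.13 ± 0.05 (adjusted p = 0.195, edgeR's quasi-likelihood test). Elf3, an epithelial ETS factor like Spdef, was next at 287 CPM per kilobase, with a genotype difference averaged over ages of -0.07 ± 0.04 (adjusted p = 0.445).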

How the data were processed

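Total RNA of mouse cornea was profiled in 15 libraries. Strand-specific libraries of ribo-depleted RNA (RIN above 8.8) were read as single 75-base reads, per the labels' protocols. Deposited were raw read counts, which the authors made over exons summed by gene identifier with featureCounts 2.0.1, strand setting 2 and GENCODE mouse release 28, per the file headers. The submitters' processing notes name mm10 and DESeq2, whereas release 28 is on GRCm39; 0 of 6 members start where release 21, on GRCm38, has them, so positions are taken as GRCm39. For the aligner, nothing is given in the sources used.

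Groups and replicate numbers came from the sample titles. Symbols from release 21 matched 52081 of 55357 identifiers (94.1%), and rows without a symbol held 0.541% to 1.22% of counts. Counts were scaled by TMM (factors 0.986 to 1.017), filtered with filterByExpr and fitted in edgeR 4.0.16 (R 4.3.3, limma 3.58.1) with 1 mean per group over all 15 libraries, quasi-likelihood tests and Benjamini-Hochberg adjustment over 15770 genes (11 residual degrees of freedom). The same fit was tested on simulated data. CPM values are TMM-adjusted, and CPM per kilobase uses the gene length in the files. Single members were compared with exact two-sided permutation tests over libraries on log2 CPM (prior count 2), and relations with 100000 permutations. Alternatives were DESeq2 1.42.0, its size factors in edgeR, other filters, a replicate block, the groups compared alone and each library left out. Leaving out the libraries with retinal transcripts, or Muc4, was added after seeing the data. Replicate numbers were checked for pairing and no sign of it was found, which cannot exclude a shared origin that the labels do not state.

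The members, gene lists and marker lists were chosen with earlier results of these data known. Besides the members, the text names the 2 genes of each list with the highest mean CPM per kilobase, or, in a list with called genes, those genes, and the 3 genes most like each tested member. Muc20, Muc2, Muc5b, Muc13, Emcn, Muc3, undetected goblet genes, Fut2 and Sytl2 are named outside that rule, after their values were seen.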

Additional observations from a re-analysis of the deposited data

Results flagged for a closer look

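Of 18 sets of 4 libraries (6 genes in the 3 groups of that size), 2 held a library far from the other 3, both for Spdef. Chance alone marks about 1 in 20 groups of normally distributed values, a rate that need not hold for low counts such as these. In OPA1+/+ at 3 months replicate 2 stood at 1.45 CPM (20 counts), against 0.315 to 0.422 CPM in the other 3, and the gap was 0.906 of the range of the group. In OPA1+/- at 3 months replicate 4, one of the libraries with retinal transcripts, stood at 0.823 CPM (15 counts), against 0.153 to 0.266 CPM, with a gap of 0.832 of the range.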

How the results depend on the processing

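The number of members called stayed at 0 in each of the 7 comparisons under the 7 or 8 alternative settings and the 15 fits that each left out 1 library. Signs of uncalled estimates did turn (log2 scale throughout). With a replicate block the age difference in OPA1+/+ was -0.033 for Muc4 and -0.055 for Agr2, and the block called no member. Same-numbered libraries did not deviate together: of 21 pairs, 2 correlated above 0.1 (-0.14 to 0.23), and 3 of 15 libraries correlated best with their own number. Without the 2 libraries with retinal transcripts Agr2 was 0.049 for genotype at 6 months, -0.54 for age in OPA1+/+ and 0.10 for the interaction, and the Muc1 interaction was 0.14. Leaving out 1 library at a time gave, for genotype at 6 months, -0.34 to 0.39 (Muc1), -0.048 to 0.056 (Muc4) and -0.81 to 0.050 (Agr2). For genotype at 3 months Agr2 ran from -0.32 to 0.064, and averaged over ages Muc1 ran from -0.072 to 0.30. For age in OPA1+/+ the ranges were -0.38 to 0.35 (Muc1), -0.10 to 0.11 (Muc4), -0.54 to 0.32 (Agr2) and -0.50 to 0.16 (Spdef), and for age averaged over genotypes -0.29 to 0.080 (Muc1). For the interaction they were -0.54 to 0.19 (Muc1), -0.69 to 0.17 (Agr2) and -0.63 to 0.024 (Spdef). The cause was not tested. Spdef fell below the filter in some of these fits and under the minimum mean of 1 CPM, which then gave no value.

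The background of genes called moved more than the members did. Over the alternative settings and left-out libraries together it ran from 0 to 45 for genotype at 3 months (1 as reported), 2 to 197 at 6 months (51) and 16 to 314 averaged over ages (125). It ran from 0 to 169 for age in OPA1+/+ (8), 1 to 83 for age in OPA1+/- (13), 18 to 250 for age averaged over genotypes (65) and 0 to 20 for the interaction (0, with 1090 genes at an unadjusted p under 0.05 in edgeR). In the lists with no called gene, 1 gene was called for age averaged over genotypes among other mucins (DESeq2) and among goblet and O-glycosylation genes (each without OPA1+/+ replicate 1 at 6 months and without the retinal libraries). Among regulators, 1 was called for genotype averaged over ages without OPA1+/+ replicate 3 at 3 months and 1 for age in OPA1+/+ without OPA1+/+ replicate 1 at 6 months. Depth limits Muc16, Muc5ac and Spdef.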

Other observations

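Sytl2, a partner of Rab27 small GTPases in granule secretion that was listed among the goblet cell genes, was split between libraries in a way the groups do not follow, and is named after its values were seen. It stood at 1.53 CPM in OPA1+/+ replicate 4 at 3 months, 0.783 CPM in OPA1+/- replicate 3 at 3 months and 0.855 CPM in OPA1+/+ replicate 3 at 6 months. In the other 12 libraries it ran from 17.7 to 62.6 CPM.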
